A study of Mus musculus with 4 samples.

Results

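Among the 16739 genes with a value in any library of this series, 10 genes of the wider alternative activation programme that interleukin-4 (IL-4) induces in macrophages were followed: Chil3, Retnla, Ear2, Tgm2, F13a1, Fn1, Cdh1, Irf4, Egr2 and Myc. They were taken as a list of mouse gene symbols, each matched to its Entrez identifier in the deposited tables, and all 10 had a value in at least 1 library. The series holds RNA-seq libraries of tumor-associated macrophages (TAMs) that were gated as CD45+ CD11b+ F4/80+ cells and sorted from subcutaneous B16-F10 melanomas, a C57BL/6 melanoma line, at day 16 after injection into the abdomen. There were 2 libraries of WT mice and 2 of mice with a conditional loss of Trim24 in myeloid cells, in which LysM-Cre, a recombinase active in macrophages, monocytes and neutrophils, cuts a floxed Trim24. All mice were C57BL/6 and 6 to 8 weeks old when they received tumor cells, and the labels name no IL-4 or other agent. Whether the WT mice carried the floxed allele or the Cre, and whether a library came from 1 mouse or from pooled mice, was not given in the sources used here. The comparison addressed whether genes that depend on Stat6, the transcription factor downstream of IL-4, moved together between the genotypes.

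IL-4 and IL-13 bind receptors that carry IL-4Rα, and the attached Jak kinases phosphorylate Stat6, which then dimerizes, enters the nucleus and binds paired TTC and GAA blocks near its target genes. In macrophages this gives the state called alternative or M2 activation, with secreted chitinase-like and resistin-like proteins, transglutaminases, adhesion molecules and a second tier of transcription factors. In tumors, macrophages in such a state are commonly found beside monocytes that have recently entered the tissue.

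The expected counts summed to 4476122 to 5172407 per library, so that 3 counts stood at 0.606 to 0.639 CPM (expected counts scaled to a common library size), a floor that covers counting error only. The F4/80 gene Adgre1 (1038 to 1304 CPM) and Csf1r (1316 to 1573 CPM) were high in all 4 libraries. The targeted gene, Trim24, reached 5.86 and 2.08 CPM in the 2 WT libraries, against 3.41 and 0.411 CPM in the mutant ones, so the groups overlapped, and the values are per gene, with the deleted exons not told apart from the rest. The mutant libraries are therefore called deficient-labelled libraries, by their label alone. The X-linked Xist was at 6.46 to 10.9 CPM in WT and 256 to 437 CPM in the deficient-labelled libraries, and the Y-linked Ddx3y was at 73.7 to 102 CPM and 0.411 to 0.426 CPM, so sex-linked transcripts and the genotype label split the libraries the same way and cannot be told apart. With 2 libraries per group an exact two-sided permutation test cannot go below p = 0.333, and the p-values given here are those of edgeR's quasi-likelihood test, which shares an estimate of the spread between genes. Nothing in the labels says that the libraries came from separate mice, so these p-values measure the spread between libraries. In bulk libraries, fewer cells of a type and less RNA per cell cannot be told apart.

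None of the 10 genes passed the call used in the study (fold change above 1.5 and Benjamini-Hochberg adjusted p below 0.05 over all tested genes) in edgeR's test, in which 9 of them were tested and 0.372% of all 11302 genes were called. At an unadjusted p below 0.05 there were 3 of the 9 (Chil3, Ear2 and Tgm2), beside 12.2% of all genes. DESeq2 called 1 of the 10, Chil3 (adjusted p = 0.0381, alternatives 2.1e-05 to 0.517), beside 1.46% of all genes, and limma on log2(FPKM + 1) called 0 of them and 0.216% of all genes. Of all genes, 3.46% were called without the first deficient-labelled library, 5.54% without the second and 0.563% without WT replicate 1, which is the background of calls made in these fits. The log2 fold change of the deficient-labelled libraries over WT was above 0 for 7 of the 9 tested genes, and its median was 0.50, where 49.4% of all tested genes were above 0 and their median was -0.0059. With library totals in place of TMM scaling, which lowers the median of all genes to -0.15, 6 of the 9 were above 0 and their median was 0.35. Both deficient-labelled libraries stood above both WT libraries for 4 of the 10 genes (Chil3, Retnla, Ear2 and Egr2) and below them for none, while 21.4% of all tested genes were higher and 23% lower without overlap.

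**Figure D1:**
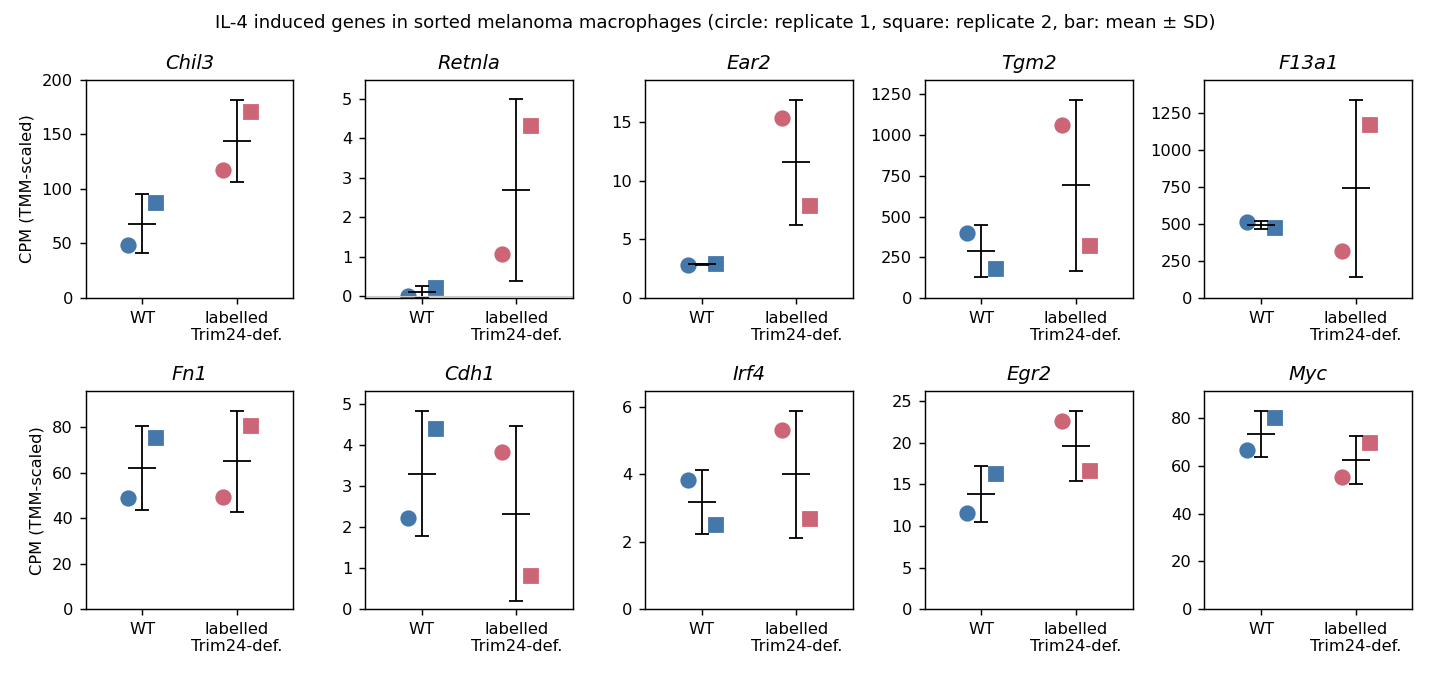
CPM of each of the 10 genes in the 2 WT libraries (blue) and the 2 deficient-labelled libraries (red), with circles for replicate 1, squares for replicate 2, and the bar and whiskers giving mean ± SD (n = 2 libraries per group); each panel has its own linear axis. Chil3, Retnla and Ear2 are higher in both red libraries, Egr2 touches (16.6 against 16.3 CPM), and for F13a1 and Tgm2 a single red library, at 1163 and 1063 CPM, stands far above the other.

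The secreted effectors had the widest gaps between the closest libraries of the groups. Chil3 encodes Ym1, a chitinase-like lectin that is a classical marker of IL-4 activated mouse macrophages, Retnla encodes the resistin-like protein Fizz1 (RELMα), and Ear2 encodes a secreted ribonuclease of the eosinophil-associated family that IL-4 also induces in macrophages. The sequence just upstream of each gene is shown because these 3 genes had both deficient-labelled libraries above both WT libraries by at least 0.42 on the log2 scale, and because Stat6 binds TTC and GAA blocks of set spacing. The sequences are the RefSeq windows of GRCm38.p6, written 5′ to 3′ on the strand of the gene and ending at the base before the annotated start of the gene, at chr3:106167565-106167814 (minus strand), chr16:48842359-48842550 (plus strand) and chr14:44102404-44102653 (plus strand), with capitals marking a match to TTCNNNGAA or TTCNNNNGAA.
Chil3: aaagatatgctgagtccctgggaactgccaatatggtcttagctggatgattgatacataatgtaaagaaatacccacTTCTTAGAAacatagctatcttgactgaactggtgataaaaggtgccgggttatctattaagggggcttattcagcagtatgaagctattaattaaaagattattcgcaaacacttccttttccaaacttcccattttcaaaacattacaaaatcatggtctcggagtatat
Retnla: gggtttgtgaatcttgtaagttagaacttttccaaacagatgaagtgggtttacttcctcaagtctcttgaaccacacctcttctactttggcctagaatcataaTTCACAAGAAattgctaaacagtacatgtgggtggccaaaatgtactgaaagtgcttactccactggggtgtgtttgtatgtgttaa
Ear2: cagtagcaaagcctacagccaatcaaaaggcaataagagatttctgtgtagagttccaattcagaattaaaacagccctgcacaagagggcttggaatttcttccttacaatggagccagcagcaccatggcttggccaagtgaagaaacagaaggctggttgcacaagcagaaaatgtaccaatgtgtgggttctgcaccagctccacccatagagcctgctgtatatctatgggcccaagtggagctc
The Chil3 window held TTCTTAGAA, which begins 172 bases before the RefSeq start, and the Retnla window held TTCACAAGAA, which begins 145 bases before its RefSeq start, which lies inside the gene as GENCODE annotates it. The window of Ear2 and those of Irf4, Egr2 and F13a1, the other members with a RefSeq window, held neither. Each motif is its own reverse complement, so a single reading covers both strands, and the 2 motifs did not overlap in these windows. Over 32851 windows of 250 bases upstream of 27025 genes, 7.02% held TTCNNNGAA, 5.85% held TTCNNNNGAA and 12.4% held either. A match describes letters in the window, and binding was not measured here.

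Chil3 (Entrez 12655, 11 exons, chr3:106147554-106167564 on the minus strand of GRCm38, protein-coding like all 10 genes) measured 49.1 and 87.5 CPM in the first and second WT library, and 117 and 171 CPM in the deficient-labelled libraries. The ranges did not overlap, with the closest libraries 0.42 and the farthest 1.79 apart on the log2 CPM scale. The group means were 68.3 ± 27.2 and 144 ± 37.9 CPM (SD, n = 2 each), a ratio of 2.11. Within WT the replicates themselves differed 1.78-fold, a gap that 6.36% of tested genes exceeded. The log2 fold change was 1.08 (standard error 0.29, 95% interval 0.43 to 1.73), and edgeR gave an adjusted p of 0.194. That value depended on single libraries: without the first deficient-labelled library the change was 1.33 and called (adjusted p = 0.000663), and without the second it was 0.78 and called (adjusted p = 0.0493), while the adjusted p over all alternatives ran from 2.1e-05 to 0.517. In these fits the library left alone in its group is assumed to vary like the other group. Of the Chil3 transcript, 29.4% of 50-base stretches were shared with Chil4 and Gm6522, and Chil4 itself had 0.85 expected counts in WT replicate 1 and none elsewhere.

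Chil3 is also a marker of Ly6C-high monocytes, and 4 of 5 other markers of those cells were higher in the same libraries. Summed over 5 other classical monocyte markers, the level was 509 and 631 CPM in WT and 1563 and 1011 CPM in the deficient-labelled libraries. Hp, haptoglobin, was called (log2 fold change 1.88, edgeR adjusted p = 0.0368), beside 0.372% of all tested genes. Of the 5, 4 were higher without overlap, beside 21.4% of all tested genes, and none was at 0. Vcan overlapped, at 12.1 and 16.5 CPM in WT and 13.2 and 18.1 CPM in the deficient-labelled libraries (log2 fold change 0.13). The order of the libraries was not the same, since the monocyte sum was highest in the first deficient-labelled library and Chil3 in the second. The part of monocytes in the Chil3 difference was not tested.

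Retnla (Entrez 57262, 4 exons, chr16:48842551-48844461, plus strand) was close to the floor of detection. It had 0 and 1 expected counts in the WT libraries and 5 and 21 in the deficient-labelled libraries, or 0, 0.208, 1.06 and 4.32 CPM. Only the deficient-labelled libraries were above the level of 3 counts, and the second had 4.05-fold the CPM of the first. Summed over each group the counts were 26 and 1, a ratio of 26.5 after scaling, with an exact 95% interval of 4.36 to 1087 that covers counting error only. Retnla fell below the filter on low counts. Its change in the unfiltered edgeR fit was 4.42 on the log2 scale (standard error 1.27, 95% interval 1.63 to 7.20, adjusted p = 0.226), a value that depends on the prior count. It was called only when the first deficient-labelled library was left out (5.09, adjusted p = 0.0314, where the alternatives ran from 0.0314 to 0.795). Retnlg, a resistin-like gene of neutrophils, had 9, 0, 9 and 55 expected counts in the same order of libraries, also highest in the library with most Retnla. The neutrophil calprotectin gene S100a8 was at 17.4, 15.6, 35.1 and 118 CPM, and the sum of 8 neutrophil markers was 97.9, 125, 117 and 291 CPM with none of the 8 at 0 in every library. Within that list Cxcr2, which made up most of the sum in WT, overlapped between the groups at 63.6, 84.0, 42.8 and 76.8 CPM (log2 fold change -0.30). Ly6g had 0 and 0 expected counts in WT and 9.41 and 4.47 in the deficient-labelled libraries, and so was highest in the first of these, unlike Retnla. The granule genes Camp and Ngp had at most 3 counts in any library. The part of neutrophils in the Retnla counts was not tested.

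Ear2 (Entrez 13587, 2 exons, chr14:44102654-44103534, plus strand) had the largest fitted change among the 9 tested genes and the lowest adjusted p among them. It was at 2.83 and 2.92 CPM in WT and at 15.3 and 7.81 CPM in the deficient-labelled libraries, from 14, 13.88, 72 and 38.04 expected counts. The WT libraries were nearly level, and both others were above them by at least 1.30 on the log2 scale. The means were 2.87 ± 0.0637 and 11.6 ± 5.32 CPM (SD, n = 2 each), a ratio of 4.03 that did not pass the test after adjustment. The log2 fold change was 2.0 (standard error 0.46, 95% interval 0.97 to 3.03, edgeR adjusted p = 0.135). Without the second deficient-labelled library it was 2.41 and called (adjusted p = 0.00162, alternatives 0.00122 to 0.522), and without the first it was 1.44 and not called. The gene has close relatives, and 41.5% of 50-base stretches of its transcript were shared with Ear10, Ear1, Ear6 and related pseudogenes, so its count is uncertain to the extent that reads of these genes were assigned to it. Ear1, Ear6, Ear10 and Ear14 were at 0 in all 4 libraries. Eosinophils can also express F4/80. Of 6 eosinophil markers, which summed to 3.23 and 4.38 CPM in WT and to 1.92 and 2.88 CPM in the deficient-labelled libraries, Prg2, Ear1 and Ear6 were at 0 and Epx had 1 count in all. Most of that sum was Ccr3 (2.42, 3.96, 0.639 and 2.05 CPM). Siglecf had 4, 2, 5 and 4 expected counts, close to the level of 3 counts. Only scaling put its groups apart, at 0.808 CPM in WT replicate 1 and 0.822 CPM in the second deficient-labelled library. It gives no direction at this level. The part of eosinophils in the Ear2 level was not tested.

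The transglutaminases Tgm2 and F13a1 were the most abundant of the 10 genes, and each was set by 1 library. Tgm2, tissue transglutaminase, is a protein crosslinking enzyme and a marker that human and mouse alternatively activated macrophages share. F13a1 encodes the A subunit of coagulation factor XIII, the transglutaminase that crosslinks fibrin, which tissue macrophages and monocytes also make.

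Tgm2 (Entrez 21817, 13 exons, chr2:158116402-158146436, minus strand) was at 400 and 177 CPM in WT and at 1063 and 319 CPM in the deficient-labelled libraries. The groups overlapped, because WT replicate 1 stood above the second deficient-labelled library. The replicates differed 2.26-fold in WT and 3.33-fold in the other group, gaps that 2.42% and 1.59% of tested genes exceeded. Its means were 289 ± 158 and 691 ± 526 CPM (SD, n = 2 each), with a log2 fold change of 1.26 (standard error 0.52, 95% interval 0.093 to 2.42, edgeR adjusted p = 0.374). Without the second deficient-labelled library the change was 1.88 and called (adjusted p = 5.37e-05), and without the first it was 0.15 (adjusted p = 0.831, alternatives 7.22e-06 to 0.999). Exons of Tgm2 overlap those of Gm20412 and Rprd1b, and 18.8% of its 50-base stretches were shared with them, so that part of its count is uncertain.

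F13a1 (Entrez 74145, 15 exons, chr13:36867178-37050244, minus strand) was at 514 and 475 CPM in WT and at 320 and 1163 CPM in the deficient-labelled libraries. The WT libraries were within 1.08-fold of each other, whereas the second deficient-labelled library held 3.64-fold the level of the first, a gap that 1.28% of tested genes exceeded, and the groups overlapped. The means were 494 ± 27.6 and 742 ± 596 CPM (SD, n = 2 each) and the log2 fold change was 0.59 (standard error 0.46, 95% interval -0.45 to 1.63, edgeR adjusted p = 0.643). Its direction rested on that library: the change was -0.63 without it (adjusted p = 0.149), and 1.24 and called without the first (adjusted p = 0.00102, alternatives 0.00102 to 0.999). Cd163, a scavenger receptor of resident-type macrophages, had the same order of libraries at 23.0, 17.9, 7.88 and 35.8 CPM, a gene singled out after its values were seen. The mannose receptor Mrc1 was likewise lowest in the first deficient-labelled library, at 1257, 1452, 664 and 1353 CPM.

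Fibronectin and E-cadherin showed no difference beyond their replicates. Fn1 (Entrez 14268, 46 exons, chr1:71585520-71653200, minus strand), the matrix glycoprotein fibronectin, was at 48.9 and 75.0 CPM in WT and at 49.2 and 80.5 CPM in the deficient-labelled libraries. In each group the second replicate was the higher, and the groups overlapped almost fully. Its log2 fold change was 0.068 (standard error 0.28, 95% interval -0.57 to 0.70, edgeR adjusted p = 0.944), and its sign turned with library totals (-0.089) and in limma (-0.063 on log2(FPKM + 1)). The sign also turned without WT replicate 1 (-0.19) and without the second deficient-labelled library (-0.33). Exons of Fn1 and Apol7d overlap, and 2.42% of the 50-base stretches of Fn1 were shared. Fibroblasts are the usual source of fibronectin, and the sum of 6 fibroblast markers was 2.83, 5.21, 3.83 and 5.96 CPM, with Lum at 0, in the same order of libraries as Fn1. The part of fibroblasts in the Fn1 level was not tested.

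Cdh1 (Entrez 12550, 16 exons, chr8:106603351-106670246, plus strand) encodes E-cadherin, the epithelial adhesion molecule that IL-4 induces in macrophages before they fuse. It was at 2.22 and 4.38 CPM in WT and at 3.83 and 0.822 CPM in the deficient-labelled libraries, from 11, 21, 18.27 and 4 expected counts. The lowest and the second highest value were both in the deficient-labelled group, 4.66-fold apart. The log2 fold change was -0.50 (standard error 0.72, 95% interval -2.12 to 1.11, edgeR adjusted p = 0.823), and it was above 0 without WT replicate 2 (0.059) or without the second deficient-labelled library (0.22). The interval with all 4 libraries reaches from a drop to a rise, so neither a direction nor an unchanged level can be read from it. The epithelial keratins Krt5 and Krt14 were at 0 in all libraries, and the sum of 5 epithelial markers was 2.22, 1.04, 1.70 and 0.822 CPM.

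**Figure D2:**
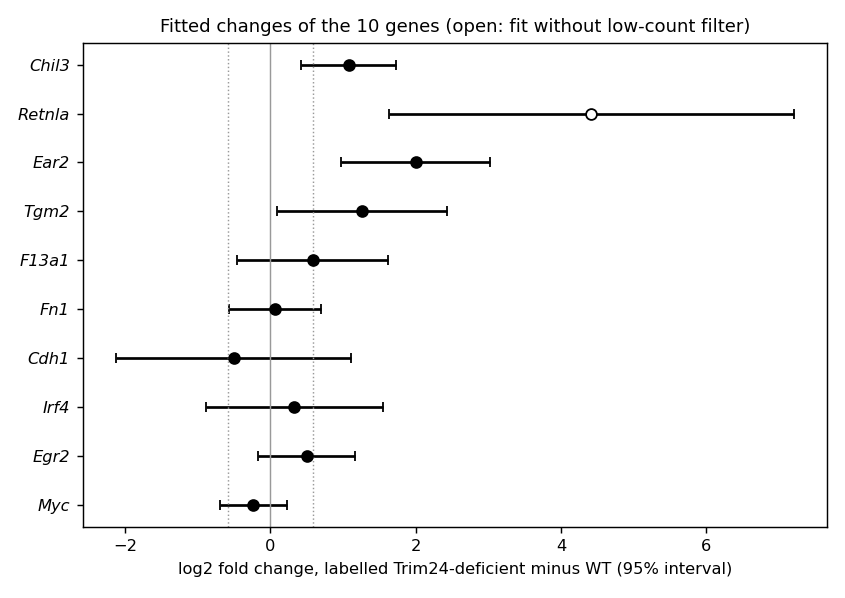
Fitted log2 fold change of the deficient-labelled libraries over WT for the 10 genes (points) with 95% intervals (bars) from edgeR's quasi-likelihood fit of 2 against 2 libraries; the open point of Retnla is from the fit without the filter on low counts, and dotted lines mark a fold change of 1.5 in either direction. The intervals of Chil3, Retnla, Ear2 and Tgm2 lie above 0, those of the other 6 genes span 0, and none of the 10 genes was called after adjustment.

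The 3 transcription factors did not share a pattern. Irf4 is a Stat6-induced interferon regulatory factor that is required for much of M2 gene expression with the demethylase Jmjd3. Egr2 is a zinc finger factor that Stat6 induces early and that then carries part of the later IL-4 response. Myc is a growth regulator that IL-4 raises in alternatively activated macrophages.

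Irf4 (Entrez 16364, 9 exons, chr13:30749226-30766976, plus strand) was at 3.84 and 2.50 CPM in WT and at 5.32 and 2.67 CPM in the deficient-labelled libraries. Replicate 1 was the higher in both groups and the groups overlapped. The log2 fold change was 0.33 (standard error 0.54, 95% interval -0.89 to 1.55, edgeR adjusted p = 0.848), and without the first deficient-labelled library it was -0.24. Its relative Irf8, a factor of the monocyte lineage, was at 330 and 294 CPM in WT and at 517 and 388 CPM in the other group.

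Egr2 (Entrez 13654, 2 exons, chr10:67535475-67542188, plus strand) was at 11.5 and 16.3 CPM in WT and at 22.6 and 16.6 CPM in the deficient-labelled libraries. The groups did not overlap, but the second deficient-labelled library was only 0.034 above WT replicate 2 on the log2 scale. The log2 fold change was 0.50 (standard error 0.30, 95% interval -0.17 to 1.17, edgeR adjusted p = 0.535), and it stayed between 0.27 and 0.77, never called, when each library was left out in turn. Its immediate-early relative Egr1 was at 61.2 and 69.8 CPM in WT and 48.1 and 44.6 CPM in the deficient-labelled libraries (log2 fold change -0.50, edgeR adjusted p = 0.343, not called).

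Myc (Entrez 17869, 3 exons, chr15:61985391-61990374, plus strand) was at 66.4 and 80.0 CPM in WT and at 55.2 and 69.2 CPM in the deficient-labelled libraries. The second replicate was the higher in both groups, and the groups overlapped. Its log2 fold change was -0.23 (standard error 0.20, 95% interval -0.69 to 0.23, edgeR adjusted p = 0.680). It was below 0 in each of the alternatives, from -0.41 to -0.075, and was called in none. Of 14 growth genes known as Myc targets, edgeR called 0 and 2 were at an unadjusted p below 0.05. DESeq2, limma and the fits without 1 library called 0 as well. The median of the 14 was -0.24, 10 were below 0, and 8 were lower and 1 higher without overlap, beside the shares of all genes given above. Those with the largest changes were Cad, of pyrimidine synthesis (-0.60, edgeR adjusted p = 0.293), the nucleolar genes Ncl (-0.49, 0.356) and Npm1 (-0.46, 0.433), and the lactate dehydrogenase gene Ldha (0.48, 0.507), none of them called.

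The 10 genes did not take a common order over the libraries. The highest value was in the first deficient-labelled library for 4 genes (Tgm2, Ear2, Irf4 and Egr2), in the second for 4 (Chil3, Retnla, F13a1 and Fn1), and in WT replicate 2 for Myc and Cdh1. The first deficient-labelled library was above the second for 5 of the 10 and below it for 5, where 50.2% of all tested genes were higher in the first. The same order of all 4 libraries was shared by Chil3 and Retnla, by Ear2 and Egr2, and by Tgm2 and Irf4, and by no other pair. With 4 libraries no correlation across samples was computed. The spread between replicates also differed among the genes, since the fitted dispersion of Cdh1, Tgm2 and F13a1 was above that of 98.6%, 97.1% and 95.1% of tested genes, and that of Myc above 24.9%.

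**Figure D3:**
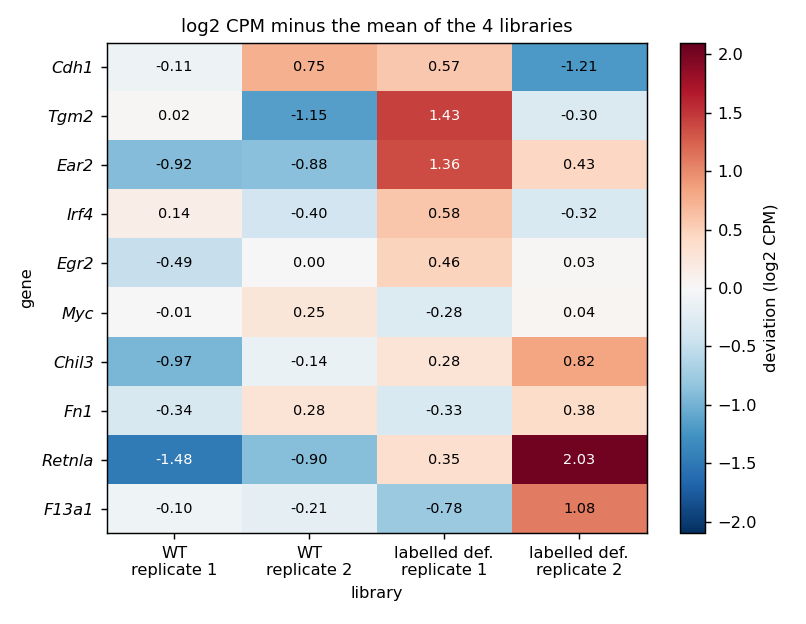
Deviation of the log2 CPM of each gene from its mean over the 4 libraries, with red for above and blue for below, and genes ordered by the difference between the 2 deficient-labelled libraries. The first of these libraries is high for Tgm2 (1.43) and Ear2 (1.36), the second for Retnla (2.03) and F13a1 (1.08). Chil3, Retnla, Ear2 and Egr2 are above 0 in both, Egr2 by only 0.030 in the second.

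Levels between genes were compared per transcript length, as FPKM over the 4 libraries. F13a1 had a mean of 155 FPKM, above 96.3% of the genes detected, followed by Tgm2 with 134 FPKM and Chil3 with 67.9 FPKM. Myc followed with 28.2 FPKM. Ear2 (10.1 FPKM), Fn1 (7.88 FPKM) and Egr2 (5.54 FPKM) were in the middle, while Retnla (2.31 FPKM), Irf4 (0.750 FPKM) and Cdh1 (0.635 FPKM) were the lowest. Neighbours in this order overlapped in their range over libraries, with the exception of Myc (21.9 to 35.6 FPKM) and Ear2 (4.18 to 21.1 FPKM). In the WT libraries alone Ear2 was in place 7 and Retnla in place 10.

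Most other genes listed as induced by IL-4 in macrophages had a change above 0, but few passed the test. Of a list of 24 such genes 22 were tested, and edgeR called 1, Ptgs1, the cyclooxygenase-1 gene, at 6.26 and 9.17 CPM in WT and 29.0 and 35.8 CPM in the deficient-labelled libraries (log2 fold change 2.07, standard error 0.29, adjusted p = 0.0188). Leaving out the first or the second deficient-labelled library raised the number called to 6, all higher, and to 8, of which 6 were higher and 2, Cd163 and Mrc1, lower. Without WT replicate 1 the only call was Arg1 and not Ptgs1, and limma called 0, with 1490 genes at an unadjusted p below 0.05 on log2(FPKM + 1). The shares of all genes called in these fits are those given above. With TMM scaling 16 of the 22 were above 0 with a median of 0.43, and with library totals 13 were above 0 with a median of 0.28. Without overlap 9 were higher and 1 lower, beside 21.4% and 23% of all tested genes. Changes at least as large as that of Ptgs1, none called by edgeR with all 4 libraries, were in Pdcd1lg2, the PD-L2 ligand (2.60, edgeR adjusted p = 0.102), Flt1, a VEGF receptor (2.33, 0.263), and Arg1, arginase 1 (2.07, 0.0990). DESeq2 called Pdcd1lg2 beside Ptgs1, and all 3 were called without the second deficient-labelled library. Arg1 was at 545 and 185 CPM in WT and 1720 and 1345 CPM in the deficient-labelled libraries, without overlap. Flt1 resembled Tgm2 in that a single library carried it, at 5.65, 4.38, 45.4 and 5.55 CPM.

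Among 12 components of the IL-4 receptor and Stat6 pathway, edgeR called 0, and 5 were at an unadjusted p below 0.05, beside 12.2% of all tested genes. DESeq2 called 1, Il2rg, and limma called 0, while Il2rg was also called without the first deficient-labelled library, and Il2rg and Jak3 without the second. Stat6 itself was at 240 and 256 CPM in WT and 283 and 310 CPM in the deficient-labelled libraries (log2 fold change 0.26, edgeR adjusted p = 0.617). The shares of all genes called in each of these fits are those given above. The median of the 12 components was 0.28, with 8 above 0, and 0.13 with library totals. The largest change without a call was that of the X-linked common gamma chain gene Il2rg (1.12, edgeR adjusted p = 0.0937). Among components with a mean of at least 5 CPM it was followed by the acetyltransferase gene Crebbp (-0.63, 0.322), Jak3 (0.61, 0.264) and the IL-13 receptor gene Il13ra1 (0.61, 0.244). Trim24, with a mean of 2.94 CPM, had a change of -1.06 (edgeR adjusted p = 0.635).

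**Figure D4:**
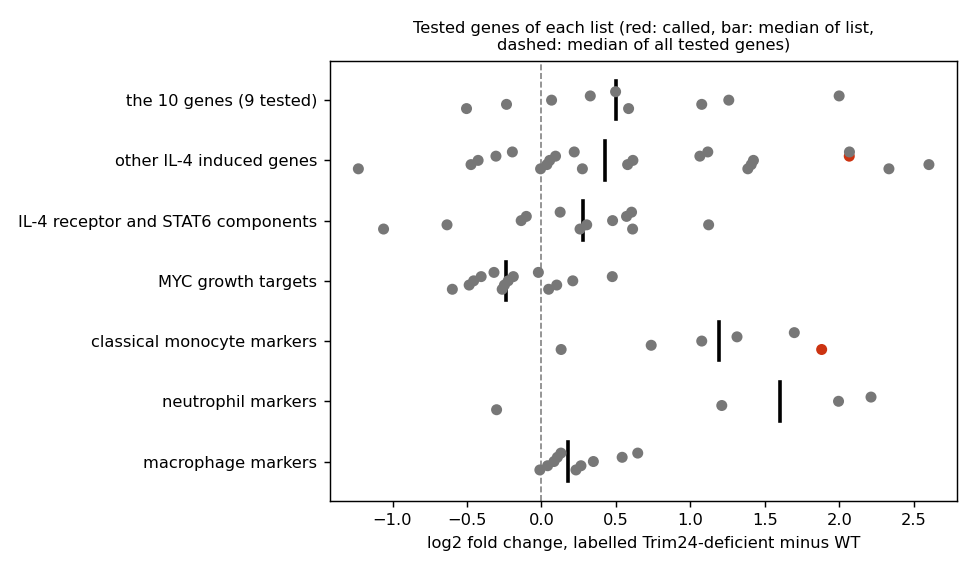
Log2 fold change of the deficient-labelled libraries over WT for each tested gene (points) of 7 lists, with the median of the list (bar), the median of all 11302 tested genes (dashed line) and called genes in red; the classical monocyte list includes Chil3. The medians are 0.50 for the 9 tested genes of the alternative activation list, 0.43 for the other IL-4 induced genes and -0.24 for Myc targets, and the calls are Ptgs1 and Hp.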

How the data were processed

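RNA-seq of sorted TAMs from 2 WT libraries and 2 libraries labelled Trim24-deficient was analysed, with groups taken from the genotype labels. According to the submitters' processing notes, reads were aligned by Bowtie (GRCm38/mm10) and assigned to genes by RSEM. The authors deposited the unnormalized expected count of each gene, a whole number in 77% of cases. They also deposited FPKM, scaled to transcript length and library total, and listed genes above 0, so a gene missing from a table was taken as 0. Tool versions were not given in the sources used here. Symbols matched 16698 of 16739 identifiers.

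Expected counts were rounded, filtered (filterByExpr, 11302 genes left) and scaled (TMM), and the label was tested with edgeR 4.0.16 (glmQLFit, glmQLFTest, R 4.3.3) without a block. A call needed more than a 1.5-fold change and an adjusted p below 0.05, the thresholds of the study. The standard error is the log2 fold change divided by the square root of F. Retnla is from the fit without the filter. Library totals of 4476122 to 5172407 set the counting precision. Replicates were distinct libraries (chi-square per degree of freedom 9.06 and 20.1). Shared 50-base stretches were counted between GENCODE transcripts of GRCm38.

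All 10 genes are named. Of the other IL-4 induced genes, the receptor and Stat6 components and the Myc targets, called genes are named. Where fewer than 4 were called, those with the largest change and a mean of at least 5 CPM are added, up to 4 a list. Trim24, Stat6, Xist and Ddx3y serve as checks. Only some relatives of the 10 genes with at least 3 counts and only some cell type markers are named. The 10 genes and the lists were chosen with earlier results of these data known. A further marker on the monocyte list is not reported here. The alternatives tried were a replicate block, DESeq2 1.42.0, library totals, upper-quartile scaling, no filter, at least 10 counts in every library, limma 3.58.1 after adding 1 or 0.1 to the FPKM and taking log2, for genes with at least 1 FPKM in at least 2 libraries or for all genes, and each library left out in turn. In simulated data with 200 genes changed 4-fold at the means and totals of these libraries, edgeR found 92% of these and made 10 false calls over the 11127 genes that it tested. Each simulated gene took the dispersion trend for its level and not its own spread between replicates. The 92% therefore does not give the power for genes of wider spread, such as Cdh1, Tgm2 and F13a1.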

Additional observations from a re-analysis of the deposited data

How the results depend on the processing

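Of the 10 genes, 0 were called as reported, 1 with DESeq2, and 0 to 3 when 1 library was left out: Chil3, F13a1 and Retnla without the first deficient-labelled library, and Chil3, Ear2 and Tgm2 without the second. Fn1 turned to -0.089 with library totals, to -0.063 with limma on log2(FPKM + 1), with or without the filter, to -0.071 on log2(FPKM + 0.1), and ran from -0.33 to 0.41 with 1 library left out. The same range was -0.63 to 1.24 for F13a1, -0.24 to 0.74 for Irf4 and -1.96 to 0.22 for Cdh1. Groups did not overlap for 4 genes, and for 5 to 8 with 1 library left out, when fewer libraries have to be apart. The share of all genes without overlap was not computed with 1 library left out. The counts of 5 to 8 therefore have no background beside them and do not show a wider separation. Retnla had no edgeR value with at least 10 counts in every library or without the second deficient-labelled library, and DESeq2 gave it no adjusted p. The cause of these changes was not tested.

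Samples of both groups carry the numbers 1 and 2, and deviations from the group means correlated at 0.165 across genes between samples of the same number, over 2 pairs, too few to say that the numbers pair the mice. The study used WT littermates, without saying which. The replicate block gave 3 calls among the 10 genes (Chil3, Ear2 and Tgm2), 7 among the other IL-4 induced genes, 1 among the receptor and Stat6 components and 634 among all genes, of which 67.0% were higher. Retnla, in a block fit without the filter chosen after seeing the data, had a change of 4.43 (edgeR adjusted p = 0.0568, alternatives 0.0314 to 0.795).

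Over all genes the 42 calls (78.6% higher) became 163 with DESeq2, 24 with limma on log2(FPKM + 1) (45.8% higher), 31 on log2(FPKM + 0.1) (35.5% higher), 0 for limma without the filter, which left 1954 genes at an unadjusted p below 0.05, and 25 to 652 with 1 library left out. The median of all genes moved to -0.15 with library totals, -0.13 and -0.15 in the filtered limma fits. Other IL-4 induced genes called were 1 as reported, 2 with DESeq2, 0 in each limma fit, and 1 to 8 with 1 library left out. Receptor and Stat6 components called were 0 as reported, 1 with DESeq2 and 0 to 2 with 1 library left out. Retnla, Irf4 and Cdh1 each had under 30 counts in every library. The fitted dispersion of Cdh1 and Irf4 was also above that of 98.6% and 93.0% of tested genes. The part of depth in their wide intervals was not tested.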

Other observations

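Beside the macrophage signal, which summed over 10 markers to 18672 and 16610 CPM in WT replicates 1 and 2 and to 19735 and 20278 CPM in the deficient-labelled libraries, the libraries held transcripts of other cells at lower levels. The melanoma pigment genes summed to 783, 740, 585 and 789 CPM in the same order of libraries, non-classical monocyte markers to 272, 181, 461 and 206 CPM, B cell markers to 55.3, 46.3, 55.4 and 51.6 CPM with Pax5 at 0, and endothelial markers to 21.8, 19.6, 45.4 and 31.4 CPM with Tek at 0. T and NK cell markers summed to 52.5, 37.1, 114 and 32.9 CPM and dendritic cell markers to 49.7, 39.2, 82.9 and 37.8 CPM. The sums of the non-classical monocyte, B cell, endothelial, T and NK cell and dendritic cell lists were each highest in the first deficient-labelled library, although the dendritic cell marker Flt3 was lower in the deficient-labelled libraries, at 3.84, 5.42, 1.28 and 0.205 CPM (log2 fold change -2.61, edgeR adjusted p = 0.207, not called). Of the 26 tested genes of these 6 lists edgeR called 0, with 6 at an unadjusted p below 0.05, beside 12.2% of all tested genes. DESeq2 called 0 of 33 and limma on log2(FPKM + 1) called 0 of 23. The replicate block called 4 of the 26, where it called 634 of all 11302 tested genes. Fits without 1 library leave a single library in a group, and their calls are not counted here. The calls given therefore do not show that these markers stayed level.

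Among relatives of the 10 genes, Chil1, a chitinase-like gene near Chil3 in sequence, had 0, 3, 5 and 31 expected counts in the same order, again highest in the second deficient-labelled library. Tgm1 was at 10.7, 7.08, 8.52 and 13.4 CPM, overlapping between the groups (log2 fold change 0.30, edgeR adjusted p = 0.791). Chit1, Retnlb, Retn, Egr4, F13b and Mycn were at 0 in all 4 libraries.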
